A study of Homo sapiens with 9 samples.

Results

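CP, FOXF1, SHISA2, DOCK10, GPR17, PDE7B, CD248, ABCA6 and CPNE7 had few or no counts in control cells and were clearly counted in cells with MPZL3 knockdown. They were chosen from the read counts themselves. A gene qualified with at most 10 counts in every control library and at least 30 counts in every knockdown library, and genes placed with a gene family were set apart. Of 58676 genes listed, 36 met both count limits (0.0614%), and the 9 described here are among them. The other 27 are counted below, and of them only those that are also a neighbour, a marker or a similar profile are named. Because the contrast between control and knockdown chose these genes, their values in it are given as a description. The statistical test on them is that of the difference between the 2 hairpins, which the count limits did not compare. The limit of 30 counts was set on the same knockdown libraries of both hairpins, so the test is not independent of the choice.

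RNA was sequenced from cultures of OVCA433, a human ovarian serous adenocarcinoma cell line, after lentiviral transduction and puromycin selection. Control cells carried a control vector without an MPZL3 hairpin, and knockdown cells carried short hairpin RNA (shRNA) #1 or shRNA #3 against MPZL3, which encodes a predicted cell adhesion molecule. Each of the 3 groups had 3 libraries, A, B and C, described by the study as biological replicates, so p-values measure the spread between these cultures of a single cell line. The study calls the control an empty vector in one place and a scrambled hairpin in another, so whether control cells express any hairpin is uncertain. RNA came from whole cultures, and more RNA per cell cannot be told apart from more cells that express a gene.

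The 9 genes have unlike functions. FOXF1 is a forkhead transcription factor of the mesenchyme around the lung and gut, where hedgehog signals from the epithelium induce it. GPR17 is a G protein-coupled receptor related to the P2Y and cysteinyl leukotriene receptors, known from oligodendrocyte precursors, and CD248 (endosialin) is a transmembrane glycoprotein of pericytes and activated fibroblasts. SHISA2 belongs to a family whose founding member holds Frizzled and FGF receptors back in the endoplasmic reticulum. DOCK10 is a guanine nucleotide exchange factor for small GTPases, PDE7B hydrolyses cAMP, and CPNE7 is a copine, a protein that binds membrane phospholipids when calcium rises. CP encodes ceruloplasmin, the copper-carrying ferroxidase of plasma, and ABCA6 is an ABC transporter whose gene lies in a cluster of close relatives.

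Promoter sequences of 5 of the 9 genes were in the RefSeq promoter table for GRCh38.p14, which held 35116 windows of 27305 genes. CP, FOXF1, CD248 and CPNE7 were not in it. The 250 bases before the transcript start are shown 5′ to 3′ on the gene's own strand because these genes went from near 0 to countable levels together, so that their starts can be compared. Capitals mark matches on either strand to the motifs searched. The GC box was searched as GGGCGG and the TATA box as TATAAA, and the CCAAT box by the letters of its name. Binding sites of TEAD factors were searched as CATTCC, those of forkhead factors as GTAAACA and those of GLI factors as ACCACCC. The AP-1 site was searched as TGANTCA, and the E-box that SNAIL and ZEB repressors bind was searched as CAGGTG.
SHISA2, chr13:26052017-26052266, minus strand: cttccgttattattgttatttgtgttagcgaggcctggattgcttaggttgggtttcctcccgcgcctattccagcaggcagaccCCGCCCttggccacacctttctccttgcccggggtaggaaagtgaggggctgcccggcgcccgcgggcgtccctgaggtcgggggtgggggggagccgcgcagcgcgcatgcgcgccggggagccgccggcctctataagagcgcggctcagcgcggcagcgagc
DOCK10, chr2:225042469-225042718, minus strand: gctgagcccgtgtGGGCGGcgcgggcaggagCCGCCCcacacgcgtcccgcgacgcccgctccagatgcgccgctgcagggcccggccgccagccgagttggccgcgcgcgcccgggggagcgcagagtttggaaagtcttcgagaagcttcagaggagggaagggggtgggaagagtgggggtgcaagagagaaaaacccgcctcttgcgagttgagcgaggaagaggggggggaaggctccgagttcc
GPR17, chr2:127645903-127646152, plus strand: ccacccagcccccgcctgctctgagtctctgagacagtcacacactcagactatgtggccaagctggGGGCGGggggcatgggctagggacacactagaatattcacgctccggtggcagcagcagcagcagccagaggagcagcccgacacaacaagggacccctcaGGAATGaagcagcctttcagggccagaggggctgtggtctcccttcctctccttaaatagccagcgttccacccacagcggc
PDE7B, chr6:135851451-135851700, plus strand: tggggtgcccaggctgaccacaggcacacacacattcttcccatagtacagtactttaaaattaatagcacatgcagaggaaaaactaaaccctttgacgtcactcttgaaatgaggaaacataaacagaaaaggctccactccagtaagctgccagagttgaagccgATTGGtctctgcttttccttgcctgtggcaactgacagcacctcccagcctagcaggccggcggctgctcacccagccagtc
ABCA6, chr17:69141896-69142145, minus strand: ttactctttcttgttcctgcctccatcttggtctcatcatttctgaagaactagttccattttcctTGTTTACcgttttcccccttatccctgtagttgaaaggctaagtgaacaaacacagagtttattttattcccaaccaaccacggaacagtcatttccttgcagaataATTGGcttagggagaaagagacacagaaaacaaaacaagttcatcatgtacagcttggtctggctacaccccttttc

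The 5 windows did not share a sequence type. SHISA2 held 26 CpG dinucleotides and DOCK10 held 27, at the 80.4 and 82.3 percentiles of all windows, whose median was 11. GPR17 held 7 CpG, PDE7B held 4 and ABCA6 held 2. GC content ran in the same order at the ends, from 70.4% in DOCK10 and 67.6% in SHISA2 to 40.8% in ABCA6. DOCK10 has 2 further starts in the table, with 5 and 2 CpG, which are not printed. The window of SHISA2 ends at a RefSeq start of 26052016, beyond the gene end of 26051031 in the count table. That of GPR17 ends at a RefSeq start of 127646153, while the gene as counted starts at 127645864. The GPR17 window thus lies inside the counted gene and not before it.

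Motif matches were few and did not overlap each other. SHISA2 held 1 GC box, 165 bases before the start, DOCK10 held 2 and GPR17 held 1, against 42.6% of all windows with at least 1. PDE7B held a CCAAT box 82 bases before its start and ABCA6 held one 77 bases before, a motif of 32.0% of windows. GPR17 held a TEAD site (reverse strand), found in 11.9% of windows, and ABCA6 a forkhead site (reverse strand), found in 2.98%. None of the 5 printed windows held the E-box (17.5% of windows), the AP-1 site (6.57%), the TATA box (10.7%) or the GLI site (4.15%) in these spellings. Of the windows not printed, that at the DOCK10 start with 2 CpG held an E-box 143 bases and a GLI site 223 bases before the start, and that with 5 CpG held a CCAAT box 57 bases before it. These matches describe letters within 250 bases and measure no binding.

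Depth was 16850854 to 23890191 counts per library, so that a single count corresponded to 0.0428 to 0.0588 CPM (counts relative to library size after TMM scaling). The targeted gene followed the labels. MPZL3 had 322, 440 and 440 counts in control libraries A, B and C, 40, 39 and 42 with hairpin #1, and 33, 18 and 39 with hairpin #3. The remaining level was not called different between the hairpins (log2 difference, hairpin #3 minus hairpin #1, −0.25, SE 0.26, adjusted p = 0.614, edgeR quasi-likelihood test). No library went against its label in MPZL3, and replicate libraries differed by more than sampling noise.

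The counts of the 9 genes together came to 40, 42 and 32 in the control libraries. The sums were 1992, 2094 and 2364 with hairpin #1 and 1514, 1981 and 2552 with hairpin #3. Scaled to CPM, control sums were 1.53 to 2.09, hairpin #1 sums 93 to 106 and hairpin #3 sums 89 to 117, so the totals of the 2 hairpins overlapped while single genes differed between them. Of the 9 genes, 4 were called different between the hairpins (44.4%) by the edgeR test, against 3.93% of all 15975 tested genes. CD248 and CPNE7 were higher with hairpin #3 (2 of 9, against 2.22% of tested genes), and DOCK10 and GPR17 were lower (2 of 9, against 1.72%). A gene was called at a Benjamini-Hochberg adjusted p-value under 0.05 and an absolute log2 difference of at least 1. All 9 genes passed the filter on low counts, which for them rested on the knockdown libraries. In 4 of 9 genes the CPM ranges of the hairpins did not overlap, against 27.7% of tested genes. The share called was 33.3% (9 of 27) among the other genes within the count limits and 11.4% (132 of 1160) among all genes called higher in knockdown, so the share is not read as particular to these 9.

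**Figure D1:**
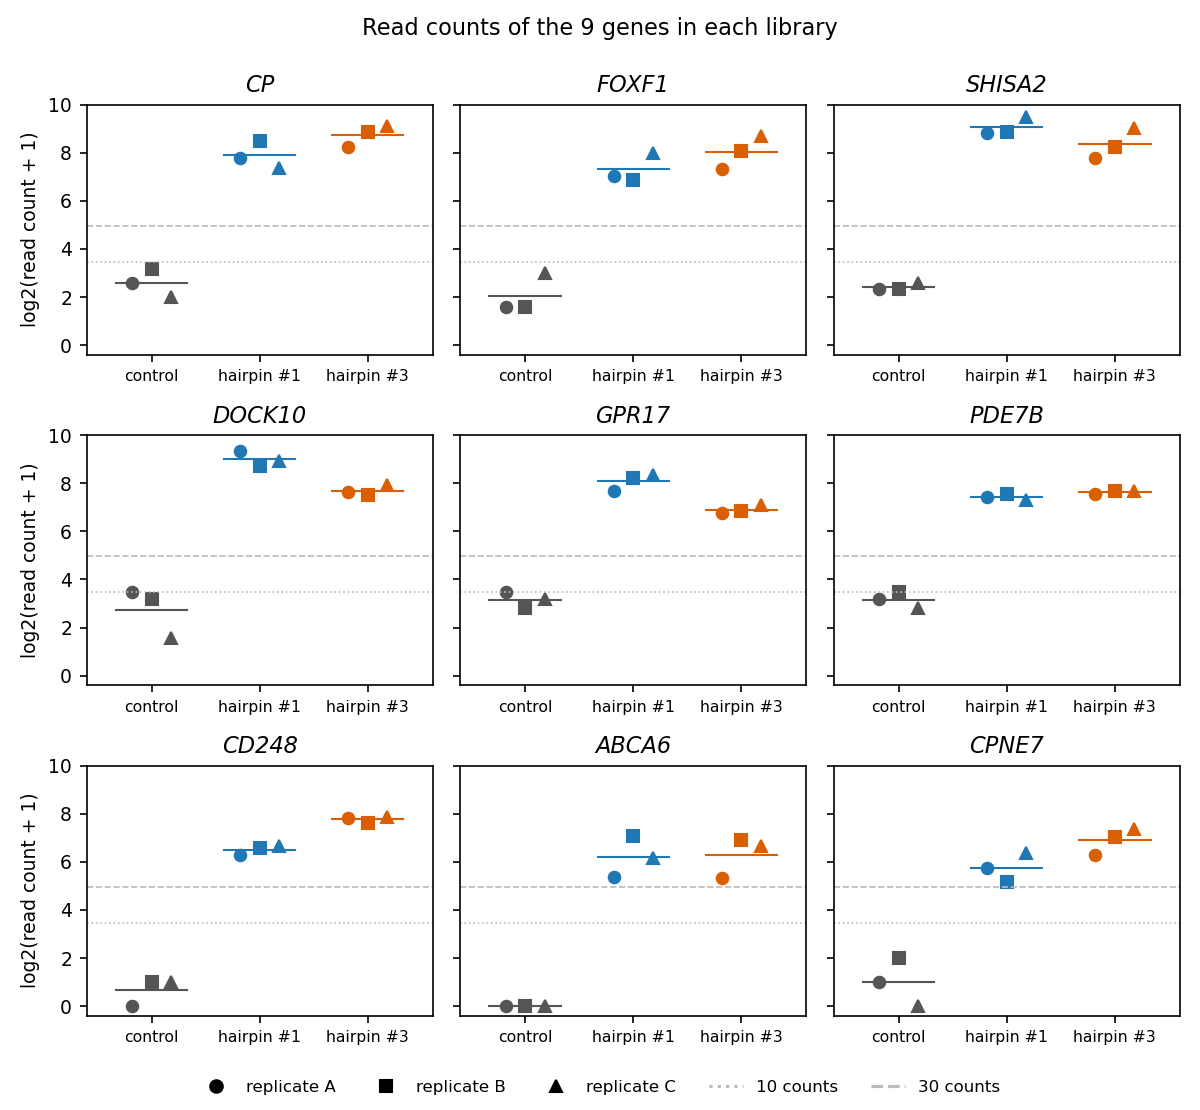
Read counts of the 9 genes in each of the 9 libraries, as log2(count + 1) on the vertical axis, with control, hairpin #1 and hairpin #3 along the horizontal axis, a point per library and a bar at each group's mean. The dotted and dashed lines mark the limits of 10 and 30 counts, with all control libraries at or below the first and all knockdown libraries above the other, by the rule of choice.

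The limits were close for some genes and far for others. DOCK10 and GPR17 reached 10 counts in control library A, and PDE7B reached 10 in control library B, the highest value allowed. At the other limit, CPNE7 had 35 counts in its lowest knockdown library and ABCA6 had 39. Among the genes just outside were C1S and DAAM2, each with 11 counts in a control library, and UNC5B and GLI1, with 29 and 28 counts in their lowest knockdown library. Others lay as close, such as MEX3B and MAP3K15 at the control limit and CCDC102B (29) and LRRC4C (28) at the knockdown limit. With the control limit at 5 counts, 11 genes in all and 4 of the 9 remained within the limits: SHISA2, CD248, ABCA6 and CPNE7.

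FOXF1 (ENSG00000103241, chr16:86510527-86515418 on GRCh38, plus strand) had 2, 2 and 7 counts in control libraries A, B and C. With hairpin #1 it had 131, 117 and 255 counts, and with hairpin #3 it had 157, 271 and 410. Library C was the highest of each group. The control mean was 0.177 ± 0.136 CPM, that of hairpin #1 was 7.66 ± 2.82 and that of hairpin #3 was 14.3 ± 4.83 (SD, n = 3 each). The hairpin ranges overlapped, and the log2 difference of 0.90 (SE 0.29, 95% interval 0.28 to 1.52) was not called (edgeR adjusted p = 0.0599). It was called when hairpin #1 library C or hairpin #3 library A was left out, at 1.25 and 1.13 (edgeR adjusted p = 0.0193 and 0.0145).

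The receptor GPR17 (ENSG00000144230, chr2:127645864-127652639, plus strand) had 10, 6 and 8 counts in control. Hairpin #1 gave 205, 294 and 328 counts, and hairpin #3 gave 109, 115 and 134. It stood at 12.8 ± 2.88 CPM with hairpin #1 and at 6.29 ± 0.123 with hairpin #3, after 0.388 ± 0.0929 in control (SD, n = 3). All 3 hairpin #1 libraries were above all 3 hairpin #3 libraries. GPR17 was 2.04-fold higher with hairpin #1 (log2 difference, hairpin #3 minus hairpin #1, −1.03, SE 0.18, 95% interval −1.43 to −0.63, edgeR adjusted p = 0.00262). Without hairpin #1 library B or C the difference was −0.91 or −0.96, below the fold threshold (edgeR adjusted p = 0.0163 and 0.0153).

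GPR17 lies inside LIMS2 on the opposite strand, and 196 of its exon bases (7.34%) are also exon of LIMS2. The libraries were not directional, so reads from the shared bases cannot be assigned by strand. LIMS2, a LIM domain adaptor of focal adhesions, moved in the same way, as given among the neighbours below.

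CD248 (ENSG00000174807, chr11:66314487-66317044, minus strand), the endosialin gene, had 0, 1 and 1 counts in control. It had 77, 93 and 99 counts with hairpin #1 and 223, 195 and 234 with hairpin #3. Every hairpin #3 library was above every hairpin #1 library, at 11.5 ± 1.38 against 4.19 ± 0.568 CPM (SD, n = 3). The 2.75-fold higher level with hairpin #3 (log2 difference 1.46, SE 0.19, 95% interval 1.06 to 1.86, edgeR adjusted p = 0.00024) was called under each of the 17 alternatives, at 1.35 to 1.55 and adjusted p-values of 1.51e-10 to 0.00173.

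SHISA2 (ENSG00000180730, chr13:26044597-26051031, minus strand) was the most abundant of the 9 by length. Control libraries had 4, 4 and 5 counts, hairpin #1 libraries 453, 460 and 723, and hairpin #3 libraries 218, 305 and 519. Its mean level was 25.2 ± 5.15 CPM with hairpin #1 and 17.8 ± 5.60 with hairpin #3 (SD, n = 3), with ranges that overlapped. The difference of −0.50 (SE 0.20, 95% interval −0.93 to −0.06) was not called (edgeR adjusted p = 0.141).

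DOCK10 (ENSG00000135905, chr2:224765090-225042445, minus strand), the exchange factor, had 10, 8 and 2 counts in control, 644, 414 and 487 with hairpin #1, and 200, 182 and 240 with hairpin #3. Levels were 0.326 ± 0.204, 24 ± 5.26 and 10.9 ± 0.896 CPM in that order (SD, n = 3). The hairpins did not overlap. DOCK10 was 2.2-fold higher with hairpin #1 (log2 difference −1.13, SE 0.20, 95% interval −1.56 to −0.71, edgeR adjusted p = 0.00222). Leaving out hairpin #1 library A, its highest, brought the difference to −0.94 and under the fold threshold (edgeR adjusted p = 0.00563).

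PDE7B (ENSG00000171408, chr6:135851696-136195574, plus strand), the cAMP phosphodiesterase, was the most even of the 9 across knockdown libraries in counts. It had 8, 10 and 6 counts in control, 169, 189 and 156 with hairpin #1, and 186, 205 and 202 with hairpin #3. Levels of 8.06 ± 1.47 and 10.5 ± 1.05 CPM with the hairpins (SD, n = 3) overlapped. The difference of 0.38 on the log2 scale (SE 0.17, 95% interval 0.00 to 0.76) was not called (edgeR adjusted p = 0.196). A noncoding transcript antisense to it, RP13-143G15.4, shares 452 exon bases (7.6%) and had at most 10 counts in any library.

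CPNE7 (ENSG00000178773, chr16:89575768-89597246, plus strand), the copine, had 1, 3 and 0 counts in control. There were 53, 35 and 81 counts with hairpin #1 and 78, 128 and 165 with hairpin #3. In CPM all hairpin #3 libraries (4.58 to 7.59) were above all hairpin #1 libraries (1.78 to 3.47). It was 2.47-fold higher with hairpin #3 (log2 difference 1.31, SE 0.30, 95% interval 0.65 to 1.96, edgeR adjusted p = 0.013). The call was lost without hairpin #1 library B (1.1), hairpin #3 library B (1.24) or hairpin #3 library C (1.17), with adjusted p = 0.0617, 0.065 and 0.0574 by edgeR.

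Ceruloplasmin, encoded by CP (ENSG00000047457, chr3:149162410-149222055, minus strand), had 5, 8 and 3 counts in control. With hairpin #1 the counts were 220, 359 and 165, and with hairpin #3 they were 304, 460 and 548. Library B of hairpin #1, at 18.2 CPM, reached the lowest hairpin #3 library, at 17.9. The means were 11.9 ± 5.76 and 22.8 ± 4.23 CPM (SD, n = 3). The log2 difference was 0.95 (SE 0.27, 95% interval 0.36 to 1.54, edgeR adjusted p = 0.0397), past the p-value threshold and under the fold threshold. It was called without hairpin #1 library B (1.40, edgeR adjusted p = 0.00377) or hairpin #3 library A (1.09, 0.0264). CP shares 1418 exon bases (19.4%) with HPS3 on the opposite strand, a gene that was not called between knockdown and control (43.5 ± 3.10, 55.3 ± 4.30 and 47.4 ± 3.95 CPM in control, hairpin #1 and hairpin #3).

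ABCA6 (ENSG00000154262, chr17:69078702-69141888, minus strand), the transporter, had 0 counts in all 3 control libraries. It had 40, 133 and 70 counts with hairpin #1 and 39, 120 and 100 with hairpin #3. Library B was the highest with either hairpin, and the highest library exceeded the lowest 3.62-fold with hairpin #1 and 2.87-fold with hairpin #3, the widest spread of the 9. The difference between hairpins was 0.23 (SE 0.46, 95% interval −0.78 to 1.23, edgeR adjusted p = 0.823), an interval that leaves room for a change past the fold threshold upward. Its sign turned when hairpin #1 library A (−0.11) or hairpin #3 library B (−0.15) was left out.

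**Figure D2:**
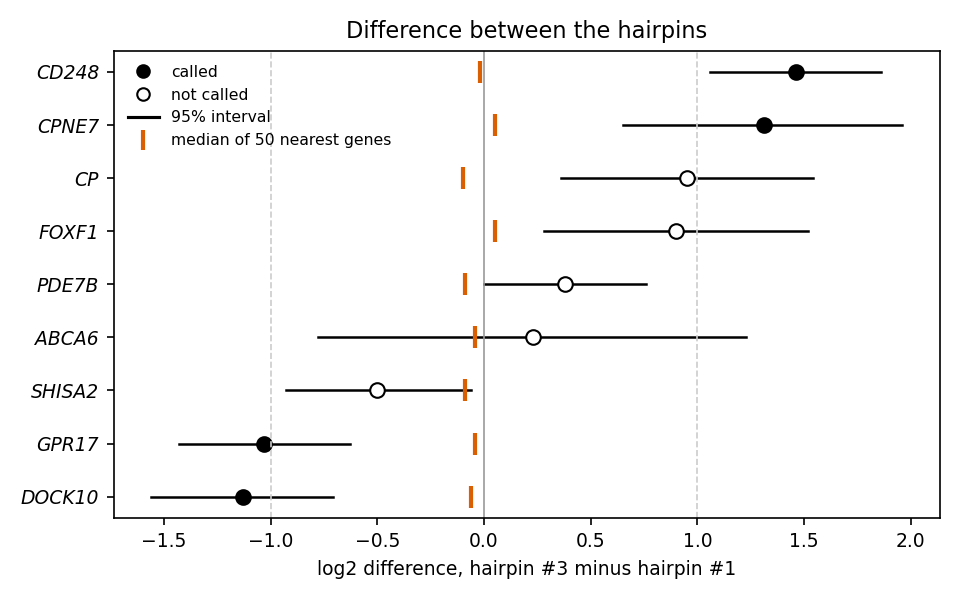
Log2 difference between hairpin #3 and hairpin #1 (horizontal axis) for each of the 9 genes (vertical axis), with 95% intervals, filled points for genes called by edgeR and dashed lines at the fold threshold. CD248 (1.46) and CPNE7 (1.31) lie on the side of hairpin #3 and GPR17 (−1.03) and DOCK10 (−1.13) on that of hairpin #1, while the short orange bars, the medians of the 50 nearest genes on the chromosome, lie between −0.10 and 0.05.

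Relative to control, the size of the difference was set by few control counts, so ratios of summed counts scaled to library size are given with exact 95% intervals. The intervals cover counting error alone and leave out the spread between cultures. They also take PCR copies of a molecule as separate reads. Because the count limits chose these genes, intervals clear of no change were fixed in advance and are no test. The comparisons of the 2 hairpins with control share the same 3 control libraries. PDE7B had the smallest ratio with hairpin #1, 20.5 (interval 13.6 to 32.3), and reached 26.8 (17.8 to 42.1) with hairpin #3. GPR17 had 33 (22 to 51.8) and 16.2 (10.7 to 25.5). DOCK10 had 74.0 (47.7 to 121) and 33.7 (21.6 to 55.5). For these genes each control library held counts and the intervals are narrow.

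FOXF1 had ratios of 43.8 (24.3 to 88.3) with hairpin #1 and 82.5 (45.9 to 166) with hairpin #3. CP had 44.5 (27.2 to 78.3) and 88.8 (54.5 to 156), close to FOXF1 with both hairpins. SHISA2 had 121 (70.3 to 227) and 86.8 (50.5 to 164). Where control held almost no count, the intervals were wide. CD248 had 129 (35.3 to 1070) and 353 (97.3 to 2920), and CPNE7 had 40.5 (15.5 to 150) and 100 (38.9 to 371). ABCA6, at 0 in control, was at least 26.6-fold higher with hairpin #1 and at least 30.8-fold higher with hairpin #3, against a floor of 3 counts in each control library.

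Levels of different genes were compared per length, as CPM per kilobase of exon. With hairpin #1, SHISA2 was highest at 8.80 (range over libraries 7.39 to 10.8), followed by GPR17 at 4.81 (3.58 to 5.59). FOXF1 (2.18) and DOCK10 (2.17) came next and overlapped, then CD248 (1.64), CP (1.63), PDE7B (1.36) and CPNE7 (0.844), each overlapping the next. ABCA6 was lowest at 0.274 (0.132 to 0.478). Only the ranges of neighbours in this order were compared.

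With hairpin #3 the order was different. SHISA2 (6.22), CD248 (4.50), FOXF1 (4.07) and CP (3.12) came first and overlapped from each to the next. GPR17 (2.36), CPNE7 (2.10) and PDE7B (1.76) followed in another overlapping run, below the first. DOCK10 (0.987) and ABCA6 (0.317) were lowest and separate. DOCK10 thus stood above CD248 with hairpin #1 and below it with hairpin #3, in ranges that did not overlap in either.

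Among all tested genes by level per length, the 9 genes lay in control, where the limit of 10 counts held them down, between the 0 percentile (ABCA6) and the 6.15 percentile (GPR17). With hairpin #1 SHISA2 reached the 69.5 percentile and GPR17 the 55.4, while CPNE7 lay at the 24 and ABCA6 at the 11.6 percentile. With hairpin #3 SHISA2 lay at 61.7, CD248 at 54.0 and FOXF1 at 51.8, with DOCK10 at 26.2 and ABCA6 at 12.4.

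**Figure D3:**
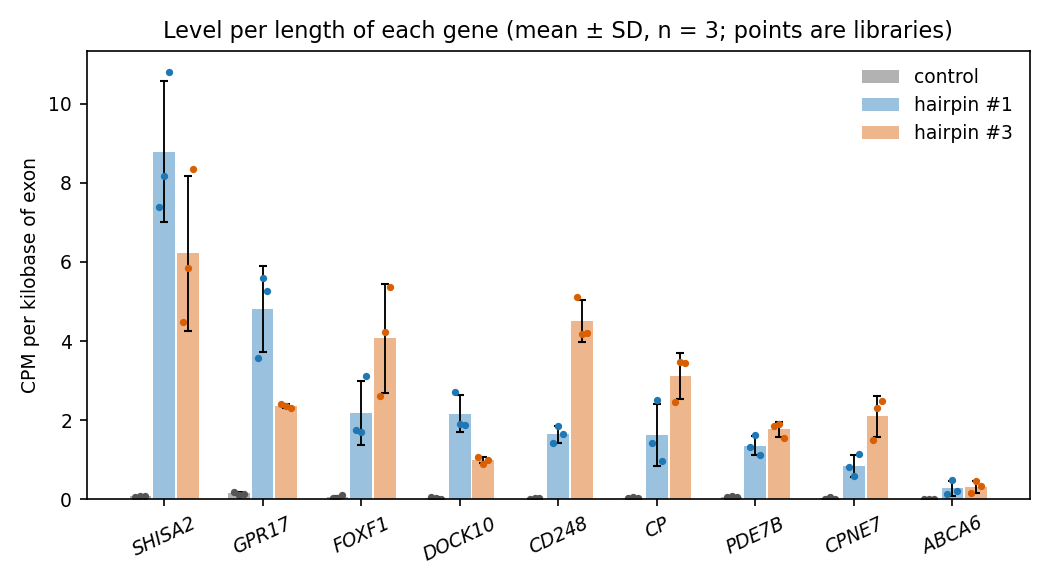
Level of each gene in CPM per kilobase of exon (vertical axis, from 0) in control, hairpin #1 and hairpin #3, with bars for the mean, error bars for the SD (n = 3) and a point per library. SHISA2 is highest with hairpin #1 (8.80), CD248 is at 1.64 with hairpin #1 and 4.50 with hairpin #3, DOCK10 is at 2.17 and 0.987, and control bars are barely above 0.

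The spread between replicate libraries also differed among the 9 genes. GPR17 with hairpin #3 varied least, with a coefficient of variation of 1.96% and 6.16 to 6.41 CPM. ABCA6 with hairpin #1 varied most, with 66.1%, and CP followed with 48.5%. With hairpin #1 library B was the highest in CPM for 5 of the 9 genes, and with hairpin #3 library A was the lowest for 5 of 9, so no library was the extreme for all of them.

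The genes next to the 9 on the chromosome were examined to see whether they moved as well. The 38 tested neighbours, the 2 nearest on each side and any overlapping gene, were chosen by position alone, but 1 of them, ATP8A2, itself meets the count limits. In knockdown against control, both hairpins as 1 arm, 7 of 38 were called higher (18.4%) and 3 lower (7.89%), against 7.26% and 7.4% of all tested genes by the same edgeR test. Without ATP8A2 6 of 37 were higher (16.2%). The median log2 fold change of the neighbours was 0.06, beside 0.00454 for all tested genes. 5 of the 9 genes had a neighbour called higher: FOXF1, SHISA2, DOCK10, GPR17 and ABCA6. How often any tested gene has such a neighbour was not counted, so this number is a description only.

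GPR17 had a pair of such neighbours. LIMS2, which contains it, went from 24, 22 and 36 counts in control to 300, 404 and 644 with hairpin #1 and 113, 150 and 197 with hairpin #3. Its log2 fold change was 3.43 (SE 0.51, edgeR adjusted p = 0.000271), and like GPR17 it was lower with hairpin #3 than with hairpin #1 (−1.37, edgeR adjusted p = 0.00159). MYO7B, an unconventional myosin gene 8135 bases away, went from 2.23 ± 1.39 CPM to 68.7 ± 25.6 and 52.9 ± 21.2 (log2 fold change 4.76, SE 0.49, edgeR adjusted p = 1.43e-05). The next genes out, IWS1, WDR33 and POLR2D, had log2 fold changes of −0.06, −0.03 and 0.07 and were not called.

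FOXL1, a forkhead gene 60950 bases from FOXF1, had 41, 44 and 60 counts in control, 165, 282 and 418 with hairpin #1, and 195, 439 and 585 with hairpin #3. Its log2 fold change was 2.86 (SE 0.40, edgeR adjusted p = 0.000157). MTHFSD, which lies between FOXF1 and FOXL1 at 14758 bases from FOXF1, was not called (0.02, edgeR adjusted p = 0.909). On the other side, COX4I1 and EMC8 were not called either (0.05 and 0.07).

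ATP8A2, a phospholipid flippase gene 18746 bases from SHISA2 and itself within the count limits, had 5, 7 and 2 counts in control. It had 58, 71 and 116 counts with hairpin #1 and 56, 79 and 87 with hairpin #3, a description like that of the 9 genes. The ranges of the hairpins overlapped, as they did for SHISA2.

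ABCA9, 17638 bases from ABCA6 in the same transporter cluster, had 0, 0 and 2 counts in control, 5, 28 and 5 with hairpin #1, and 6, 33 and 20 with hairpin #3. Library B was again the highest with either hairpin. It was called higher (edgeR adjusted p = 0.0112), but not without control library B (adjusted p = 0.0523). ABCA10, 5326 bases away on the other side, was at 0.244 ± 0.130, 0.512 ± 0.0795 and 0.727 ± 0.381 CPM in control, hairpin #1 and hairpin #3 and was not called (edgeR adjusted p = 0.0668), and ABCA5 was at −0.40 (0.0684).

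Far from DOCK10, at 725771 bases, SERPINE2, a secreted protease inhibitor gene, was called higher (1.66, SE 0.36, edgeR adjusted p = 0.00395). Its levels were 28.3 ± 4.23, 125 ± 16.5 and 52.8 ± 2.41 CPM in control, hairpin #1 and hairpin #3, and it was lower with hairpin #3 than with hairpin #1 (−1.25, edgeR adjusted p = 4.05e-05), the direction of DOCK10. AC068138.1, 1137599 bases away on the other side, was called (1.47, edgeR adjusted p = 0.0334) but lost the call without control library A or B, or without any 1 of the 3 hairpin #3 libraries (1.13 to 1.43, edgeR adjusted p = 0.0537 to 0.132). CUL3, the nearest gene, was not called (−0.04).

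The 3 neighbours called lower lay beside CP and PDE7B. TM4SF18 and TM4SF1, membrane proteins of the tetraspanin-like L6 family, lie beside CP and fell by 3.51 (SE 0.47, edgeR adjusted p = 0.000125) and by 1.32 (SE 0.10, edgeR adjusted p = 1.47e-06) on the log2 scale. TM4SF18 had 82, 146 and 105 counts in control, 8, 3 and 2 with hairpin #1 and 16, 9 and 18 with hairpin #3. It differed between hairpins by 1.87 (edgeR adjusted p = 0.0361), a call lost without hairpin #1 library B or C or hairpin #3 library A or C (adjusted p = 0.0894 to 0.133). MYB, 632523 bases from PDE7B, fell by 1.33 (edgeR adjusted p = 0.0321), and the call was lost without any 1 of the control libraries or of hairpin #1 library A or C (adjusted p = 0.0523 to 0.131). No neighbour of CD248 or CPNE7 was called. RIN1, 13198 bases from CD248, had a log2 fold change of 0.75 (edgeR adjusted p = 0.000404), under the fold threshold.

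**Figure D4:**
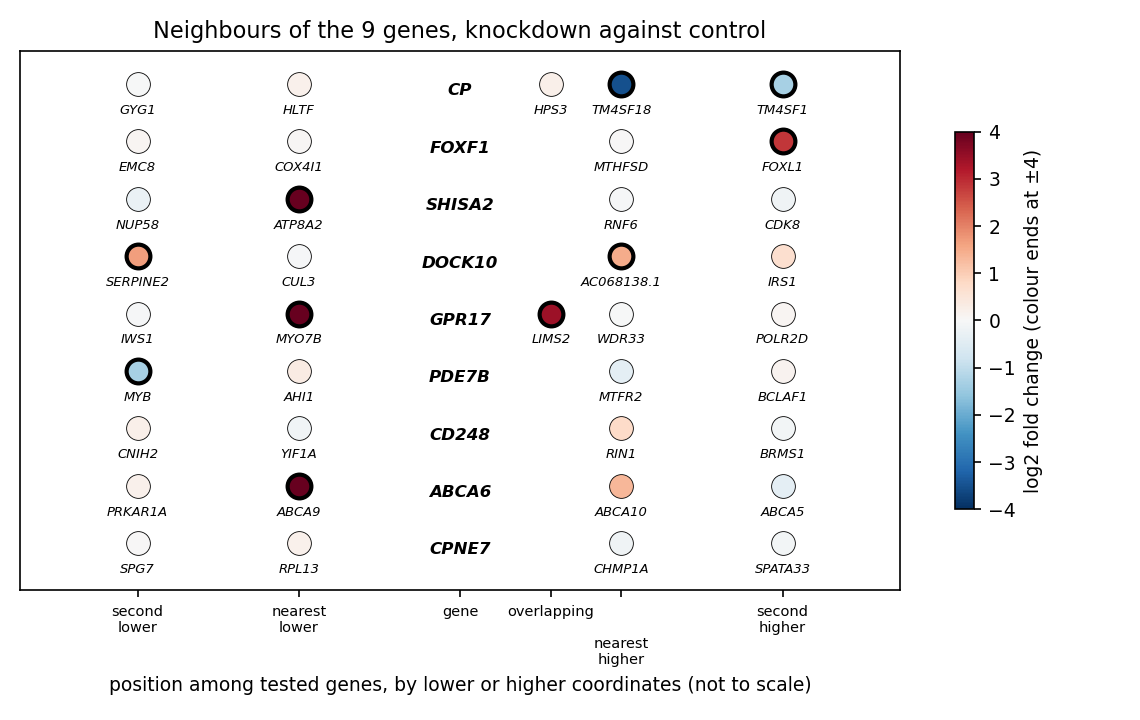
Log2 fold change in knockdown against control (colour, ending at ±4) of the tested genes around each of the 9 genes, by position from lower to higher coordinates along the horizontal axis, not to scale, with thick rims for genes called by edgeR. Red rimmed circles stand beside FOXF1, SHISA2, DOCK10, GPR17 and ABCA6, blue ones beside CP and PDE7B, and none beside CD248 and CPNE7.

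Wider stretches of the chromosome were flat. The median log2 fold change of the 50 nearest genes whose mean level was 10 CPM or more lay between −0.14, around CD248, and 0.06, around PDE7B. Between the hairpins these medians lay between −0.10 and 0.05.

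Genes related by function were drawn from lists of pathways and families. Of 128 such genes, 85 were tested, 22 were called higher, 6 lower and 57 were not called (edgeR, knockdown against control), with a median log2 fold change of 0.18. The shares were 25.9% higher and 7.06% lower, against 7.26% and 7.4% of all tested genes. The lists were chosen with earlier results of these data known, so these shares are a description only. No test between lists was run.

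In the hedgehog to FOXF1 list 5 of 9 tested genes were called higher and none lower, with a median of 1.54. GLI1, a transcription factor and standard readout of hedgehog signaling, had 4 or 5 counts in each control library and 28 to 77 in knockdown libraries (log2 fold change 3.40, SE 0.36, edgeR adjusted p = 2.06e-05). HHIP, which binds hedgehog ligands at the cell surface, was at 2.97 (SE 0.37, edgeR adjusted p = 6.32e-05), FOXL1 at 2.86 as above, and GLI3 at 2.72 (SE 0.30, edgeR adjusted p = 2.84e-05). GLI2 was the other gene called (1.54). PTCH1, a receptor and target of the pathway, was not called (16.1 ± 2.23, 14.9 ± 1.91 and 15.6 ± 0.429 CPM in control, hairpin #1 and hairpin #3). The ligands SHH, IHH and DHH had at most 13 counts in any library, and FENDRR, the noncoding RNA transcribed away from FOXF1, had 0 counts in control and 3 to 24 in knockdown libraries, too few to be tested.

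Around DOCK10, 5 of 16 tested DOCK family, ELMO and GTPase genes were called higher and 2 lower, with a median of −0.02. RHOJ, a GTPase close to CDC42, rose by 3.29 (SE 0.19, edgeR adjusted p = 1.11e-07), DOCK4 by 2.49 (SE 0.17, edgeR adjusted p = 5.62e-07) and DOCK2 by 2.18 (SE 0.31, edgeR adjusted p = 0.00019). DOCK11 rose by 2.14 (SE 0.27, edgeR adjusted p = 7.77e-05) and DOCK1 by 1.04 (SE 0.12, edgeR adjusted p = 3.63e-05). Like DOCK10, DOCK11 was lower with hairpin #3 than with hairpin #1 (−0.73, edgeR adjusted p = 0.0103), under the fold threshold. DOCK8, a relative of DOCK10 that also acts on CDC42, went the other way. It had 133 to 201 counts in control libraries and 0 to 5 in knockdown libraries (edgeR adjusted p = 2.23e-06). DOCK3 was the other gene called lower (−1.57, edgeR adjusted p = 0.00358). CDC42, a GTPase that cells generally express, was listed at 7 counts or fewer in every library. Whether counting or annotation lowers its value was not tested, so a count near 0 is the listed value and does not show that a gene is silent.

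Among 16 tested cAMP phosphodiesterases and adenylyl cyclases, 4 were called higher and 1 lower, with a median of 0.14. The cyclase ADCY5 rose by 3.86 (SE 0.35, edgeR adjusted p = 5.49e-06). The phosphodiesterases PDE4B, PDE1A and PDE4D rose by 3.57, 2.17 and 1.96 (edgeR adjusted p = 3.43e-06, 0.00222 and 0.00254). PDE7A, the closest relative of PDE7B, was not called (16.0 ± 1.52, 15.1 ± 1.90 and 15.8 ± 2 CPM in control, hairpin #1 and hairpin #3).

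In the list around GPR17, P2Y receptors, cysteinyl leukotriene receptors and leukotriene synthesis, 3 of 9 tested genes were called higher and 1 lower, with a median of 0.09. GGT5, an enzyme that converts leukotriene C4, had 0 to 1 counts in control and 6 to 39 in knockdown libraries (edgeR adjusted p = 0.00305). P2RY2 fell by 3.04 (SE 0.37, edgeR adjusted p = 5.77e-05). P2RY6 (1.48, edgeR adjusted p = 0.0265) lost its call without any 1 of the control libraries (1.29 to 1.67, adjusted p = 0.0535 to 0.104), and P2RY1 (1.19, 0.00463) lost it without control library B (0.94, 0.0292). The leukotriene receptors CYSLTR1 and CYSLTR2 had at most 1 count and 0 counts in any library.

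Among copper and iron genes, the list for CP, 2 of 15 tested were called higher and none lower, with a median of 0.27. FTL, the ferritin light chain, rose by 1.13 (SE 0.28, edgeR adjusted p = 0.00881) and MT2A, a metallothionein, by 1.1 (SE 0.22, edgeR adjusted p = 0.00252). FTL was under the fold threshold without hairpin #1 library C (0.93), and MT2A without control library B or C (0.98 and 0.92). FTH1, the ferritin heavy chain, was not called in knockdown against control (0.46, edgeR adjusted p = 0.421). It was at 657 ± 143, 1280 ± 409 and 529 ± 157 CPM in control, hairpin #1 and hairpin #3, and was called lower with hairpin #3 than with hairpin #1 (−1.27, edgeR adjusted p = 0.00657). HEPH, the membrane-bound ferroxidase most like CP, had 0 counts in control and at most 12 in knockdown libraries.

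The ABCA list had 2 of 10 tested genes higher and 1 lower, with a median of −0.32. They were ABCA9, given above, the cholesterol exporter ABCA1 (1.66, SE 0.25, edgeR adjusted p = 0.000271) and ABCA3, which fell by 1.29 (edgeR adjusted p = 0.00253). Of the copines, 5 other than CPNE7 were tested and 1 was called. CPNE4 had 80 to 172 counts in control libraries and 0 to 8 in knockdown libraries (edgeR adjusted p = 4.64e-06), opposite to CPNE7. The copine median was −0.03.

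Of the relatives and ligands of CD248, only FN1 and LGALS3BP passed the filter. FN1, the fibronectin gene and a ligand of CD248, rose by 2.28 (SE 0.31, edgeR adjusted p = 0.000124), from 1590 ± 265 CPM to 8430 ± 4120 and 7040 ± 2090. The related receptors CLEC14A and CD93 had 0 and at most 2 counts in any library. In the Shisa family 3 other genes were tested and none was called by edgeR (median 0.10), with adjusted p = 0.026 for SHISA5 at −0.37.

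**Figure D5:**
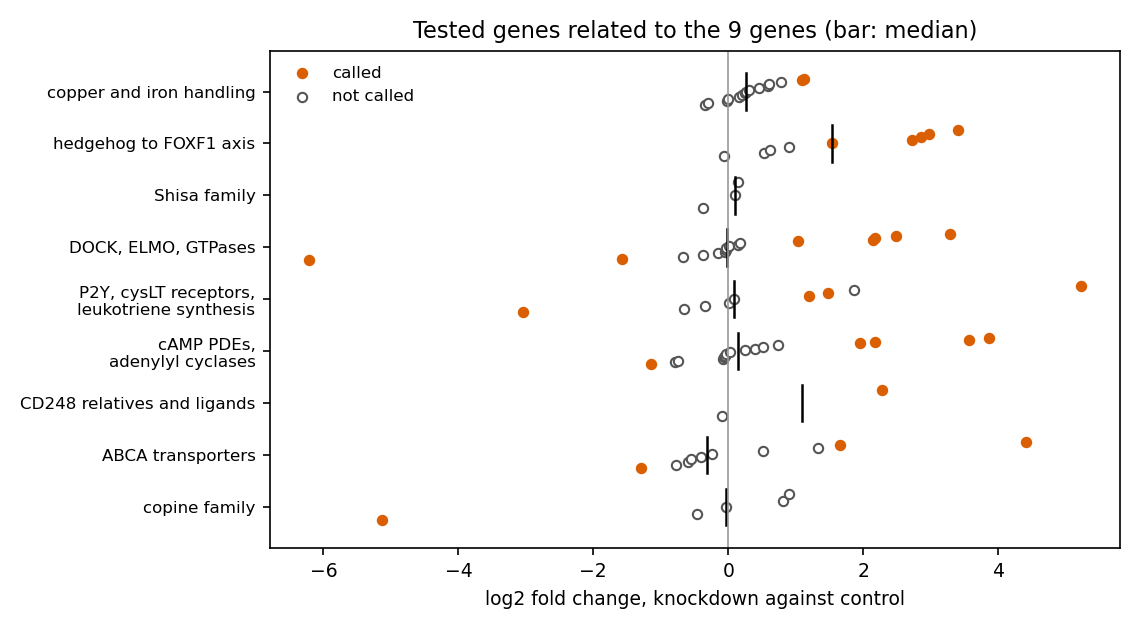
Log2 fold change in knockdown against control (horizontal axis) of the tested related genes in each list (vertical axis), a point per gene, filled where called by edgeR, with a bar at the list's median. The hedgehog to FOXF1 list has its median at 1.54, and the other lists with at least 3 tested genes have theirs between −0.32 and 0.27.

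Markers of the cell types in which these genes are best known were checked as lists, and their part in the results was not tested. Of 9 pericyte markers 6 were tested and 2 were called higher, PDGFRB (log2 fold change 4.78) and RGS5 (3.56), and none lower. Their summed level was 930 to 1020 CPM in control libraries, 582 to 674 under hairpin #1 and 587 to 616 under hairpin #3. The sum was mostly ANPEP, MCAM and NOTCH3, which fell by 0.91, 0.76 and 0.26 on the log2 scale (edgeR adjusted p = 0.000219, 0.00171 and 0.0424). These 3 falls were under the fold threshold and so not called. The defining markers KCNJ8 and ABCC9 had 0 and at most 1 count. Of 9 fibroblast markers 5 were tested and 4 were higher, with sums of 31.7 to 33.7 CPM in control libraries, 102 to 432 under hairpin #1 and 569 to 932 under hairpin #3, mostly COL1A1. PDPN, the other tested marker, was not called in knockdown against control. Its levels were 12.6 ± 1.2, 0.27 ± 0.175 and 78 ± 5.14 CPM in control, hairpin #1 and hairpin #3. Between the hairpins its log2 difference was 8.1 (edgeR adjusted p = 3.08e-10). Of those not tested, DCN had 0 counts in every library and PDGFRA at most 8. FAP had 7 to 18 counts in control and 1 to 12 in knockdown libraries, and THY1 had 0 to 1 and 3 to 9.

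Of 8 endothelial markers 6 were tested, 3 were higher and 1 lower, with sums of 16.3 to 25.1, 351 to 402 and 343 to 393 CPM in control, hairpin #1 and hairpin #3, nearly all TIE1. CDH5 had 1 to 3 counts in control and 24 to 112 in knockdown libraries, and KDR, itself within the count limits, had 3 to 10 and 30 to 60, while PECAM1 and CLDN5 had at most 4 counts. The gene called lower was ESAM. Of 7 oligodendrocyte lineage markers, the cells in which GPR17 is best known, 2 were tested and 1 was lower. Their sums were 203 to 223, 140 to 156 and 111 to 134 CPM, mostly MBP, the gene called lower, and CNP, which was not called. The defining factor OLIG2 had 0 counts. Of 8 hepatocyte markers, the source of plasma ceruloplasmin, 2 were tested, 1 higher and 1 lower. Their sums were 88.5 to 129, 34.6 to 42.4 and 31.7 to 58.3 CPM, nearly all SERPINA1, the gene called lower, with ALB at 2 counts or fewer.

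Leukocyte markers stayed at 0.552 to 1.59 CPM in every library, with 1 of 8 tested and not called. Of 5 mesothelial markers 4 were tested and 2 were lower, with sums of 148 to 198, 94.0 to 110 and 157 to 199 CPM. Of 10 markers of ovarian serous epithelium 8 were tested, 1 was higher (PAX8) and 4 lower, with sums of 10100 to 12100, 5350 to 6770 and 5290 to 5890 CPM. WT1 and EMX2 had 0 counts in every library, and MUC16 had 42 to 86 counts in control and 0 in knockdown libraries.

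For each of the 9 genes, the most similar profiles over the 9 libraries were sought among tested genes, with the 9 themselves left out. Similarity was measured by the root mean square difference of centred log2(CPM + 0.5) values, where 0 is identity. This is a description over 9 libraries that share the same contrast. FAM101A and SHANK1 were closest to both FOXF1 (0.28 and 0.306) and CD248 (0.386 and 0.391), and SHANK1 and PDGFRB were closest to CP (0.456 and 0.502). ANGPT1 (0.236) and CNRIP1 (0.262) were closest to GPR17, and C4BPB (0.357) and VCAN (0.388) to DOCK10, both higher with hairpin #1. NNMT (0.337) and SLIT3 (0.366) were closest to SHISA2, and PCDHGB7 (0.253) and RHOJ (0.263) to PDE7B. GRASP (0.298) and NRK (0.324) were closest to CPNE7, and GRASP is itself within the count limits. SNAI1 (0.277) and PLPP3 (0.351) were closest to ABCA6.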

How the data were processed

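The authors aligned poly(A)-selected, non-directional reads with HISAT2 2.0.5 and counted them per gene with featureCounts 1.5.0-p3 (submitters' processing notes), on GRCh38. The deposited values are raw read counts, with no normalization or filter. All 58676 gene identifiers were present in GENCODE 29, where 95.2% had the same position, and 26762 genes had no count.

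Genes were filtered with filterByExpr (minimum count 10, minimum total 15), leaving 15975 genes with 99.889% of counts. Hairpin #3 against hairpin #1, and each against control, were tested in a 3-group model of all 9 libraries, and both hairpins as 1 arm against control, as the study grouped them. The test was edgeR 4.0.16 quasi-likelihood with TMM in R 4.3.3, Benjamini-Hochberg adjusted over all tested genes, checked on simulated counts. A gene was called at an adjusted p-value under 0.05 and an absolute log2 value of at least 1. Each SE was derived from the fitted log2 value and its F statistic.

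The members, the lists of related genes and markers, and the tests were chosen with earlier results of these data known. Named were the 9 genes and MPZL3, their tested neighbours and at most 4 called genes per related list with the largest change. The 2 most similar profiles per gene, outside the 9, were also named. GLI2, DOCK11, DOCK1, DOCK3, some genes just outside the count limits and genes at 0 or uncalled were picked after their values were seen. Alternatives were the fits without a low-count filter or with one at a mean of 1 CPM, scaling by DESeq2 size factors or by totals alone, DESeq2 1.42.0 in place of edgeR, a block for the replicate letter, the 6 knockdown libraries alone, a 3-group model for the pooled arm, no fold threshold, other count limits and each library left out. Library totals of 16850854 to 23890191 counts limit precision for genes near 0.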

Additional observations from a re-analysis of the deposited data

Results flagged for a closer look

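Among the 9 genes, 4 differed between the hairpins by the test of the difference itself. DOCK10 and GPR17 were lower with hairpin #3 than with hairpin #1 (log2 difference −1.13 and −1.03), and CD248 and CPNE7 were higher with hairpin #3 (1.46 and 1.31). Of the 38 genes next to them, 3 (7.89%) differed as well, against 3.93% of all tested genes: SERPINE2, far from DOCK10, by −1.25, LIMS2, which contains GPR17, by −1.37, and TM4SF18, beside CP, by 1.87 in libraries of 2 to 18 counts, a call lost without hairpin #1 library B or C or hairpin #3 library A or C (edgeR adjusted p = 0.0894 to 0.133). SERPINE2 and LIMS2 had the sign of their neighbour among the 9, and TM4SF18, which fell in knockdown, had that of CP. The remaining MPZL3 level overlapped between the hairpins, and whether off-target effects of either hairpin contribute was not tested.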

How the results depend on the processing

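Between the hairpins, 139 of 153 alternative values of the 9 genes kept direction and side of the thresholds, 6 gained a call, 6 lost one and 2 changed sign, those of ABCA6 without hairpin #1 replicate A (−0.11) or hairpin #3 replicate B (−0.15), in a range of −0.15 to 0.88 over left-out libraries. Leaving out each library in turn gave 515 to 711 genes, 3 to 6 of the 9 and 2 to 4 neighbours called between hairpins. In the pooled comparison it gave 2096 to 2490 genes, 17 to 24 related genes higher and 5 to 7 lower, and 5 to 7 neighbours higher and 2 to 3 lower. The count limits then held 36 to 51 genes and 9 of the 9. Without the fold threshold 1857 genes were called between hairpins and 5269 in the pooled comparison, against 628 and 2342, and 15 related genes were lower, against 6. Limits of 5 and 30 counts held 11 genes and 4 of the 9, and limits of 10 and 50 counts held 13 genes. TM4SF18 lost its call between hairpins with only the 6 knockdown libraries (edgeR adjusted p = 0.0523).

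The letters A, B and C were not used as pairs in the main test, although replicate A stood apart. Deviations of same-letter libraries in different groups all correlated positively, at 0.0515 to 0.466. Those of an A library with a B or C library were all negative, at −0.437 to −0.134. Each group was centred on its own mean, so negative values largely follow once A correlates positively with A. They add little to the positive values. Not every B library correlated best with its own letter, so pairing of B and C stayed unsettled. The main test leaves the shared difference of replicate A in the spread between libraries. With the replicate block, 754 genes, 5 of the 9 and 4 neighbours were called between hairpins and 2306 genes in the pooled comparison. CP was then called (1.02, edgeR adjusted p = 0.00134), and MYB was not (adjusted p = 0.0594). FOXF1 (0.9, edgeR adjusted p = 0.000752) and SHISA2 (−0.52, edgeR adjusted p = 0.00234) were then past the p-value threshold and under the fold threshold. Adjusted p-values over the alternatives ran from 3.97e-10 to 0.0189 for DOCK10, 3.68e-06 to 0.0174 for GPR17 and 5.08e-06 to 0.065 for CPNE7. For the genes not called they ran from 2.83e-07 to 0.148 for CP, 3.55e-05 to 0.233 for FOXF1 and 0.00234 to 0.426 for SHISA2. They ran from 0.0544 to 0.464 for PDE7B and from 0.283 to 0.961 for ABCA6. A left-out library leaves 2 in its group, and control levels of a few counts limit every ratio to control.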
